A study of Mus musculus with 33 samples.

Results

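Transcripts were compared between 5 libraries from mice given nicotinamide (NAM) for 14 days and 5 libraries from untreated mice, all labelled spleen, which are 10 of the 33 libraries of the series. Sample titles put each library in its group. The series measured polyadenylated RNA of organs labelled spleen or lymph node from tumour-free mice at 1, 3 and 14 days of NAM and without it. All mice were C57Bl/6, and the general methods of the study name females; the age of these mice is given only as a range that covers many experiments. The treated mice drank water with 0.5% NAM, renewed weekly according to the labels and more often according to the general methods of the study, for 14 days, and the untreated mice drank water without it. Each library is labelled as a separate sample, and whether organs were pooled or collected on the same day is not given in the sources used here, so that the p-values measure the spread between these samples.

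NAM is a form of vitamin B3 that cells turn into nicotinamide adenine dinucleotide (NAD) through the salvage pathway, in which Nampt and the Nmnat enzymes act in turn. NAD is an electron carrier of energy metabolism and is also consumed by the sirtuins, the PARP enzymes and Cd38, which release NAM again. Excess NAM is methylated by Nnmt at the cost of S-adenosylmethionine and leaves the body in the urine. The comparison addresses the effect of NAM on immune transcripts, since the study was interested in immune stimulation by NAM.

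Most tissue markers went against the label. Glycam1, a ligand for lymphocyte homing that is made in the high endothelial venules of lymph nodes, was read at 108170 to 214210 normalised read counts in the 10 libraries, and at 1.59 to 12.4 in the libraries labelled lymph node. Nkx2-5, a transcription factor that patterns the embryonic spleen, and the red cell gene Epb42 were at 0 in all 10 libraries. Tlx1, another patterning factor of the spleen, was at 0 in the 5 untreated libraries and at most at 3.74 at 14 days, against 351 to 573 under the lymph node label. Spic, which red pulp macrophages need, was read at 774 to 1295 here and at 6117 to 10491 under the lymph node label. Madcam1, an addressin for lymphocytes listed as a lymph node marker, was the exception, at 169 to 402 here and 577 to 956 there. The organ is therefore called by its label throughout, and no other name is given to it.

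The 10 libraries held 18325061 to 48338251 reads. Along the first principal component, which took 39.3% of the variance, untreated replicates 1 and 3 and 14-day replicates 1 and 3 stood apart from the other 6 libraries, and these 4 also had the lowest mean log2 level of 26 adipocyte genes, from 9.62 to 10.9 against 11.6 to 12.4 in the others. The split crossed the groups. It was wide for fat, glands and matrix and narrow for lymphocytes, as the plot of list scores by library shows. In bulk RNA, fewer cells of a type and less RNA per cell cannot be told apart.

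**Figure D1:**
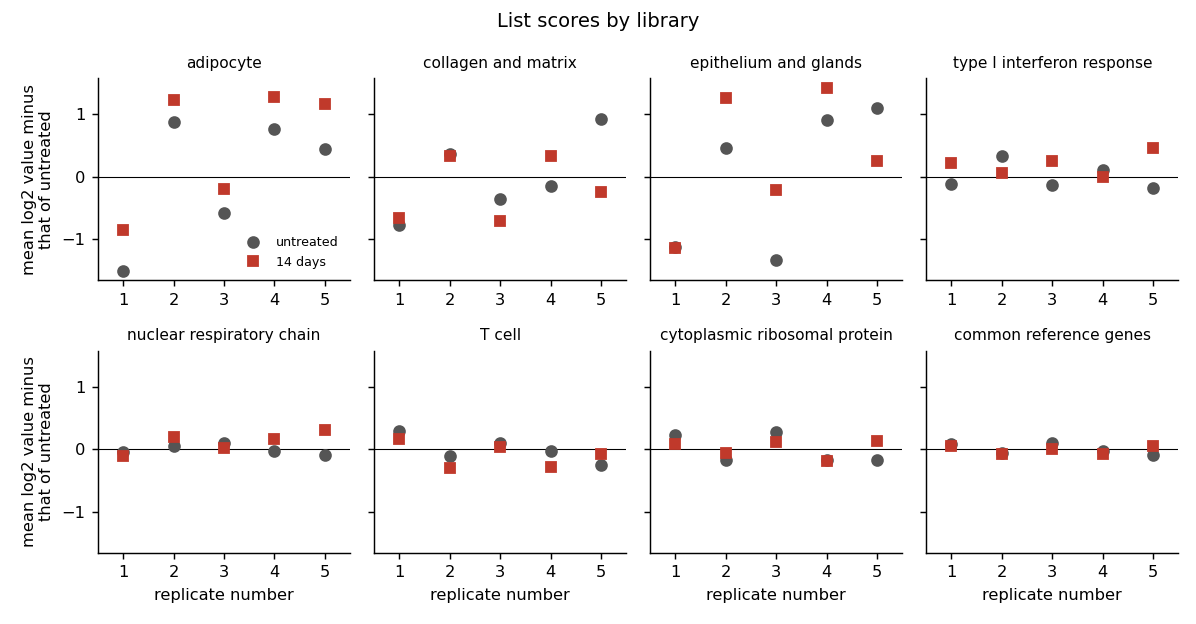
Mean log2 normalised read count of 8 gene lists in each library, as a difference from the mean of the 5 untreated libraries, against replicate number. Circles are untreated and squares 14-day libraries. The adipocyte score ranged from 9.62 to 12.4 over the 10 libraries, while the score of the common reference genes ranged from 13.3 to 13.5. No label ties a treated to an untreated mouse of the same replicate number.

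After 14 days of NAM, no transcript passed the test. Of 18243 genes with a mean of at least 10 normalised read counts, 0 (0%) had an adjusted p under 0.05 by limma with Benjamini-Hochberg adjustment, 510 (2.8%) had an unadjusted p under 0.05, and of these 231 (1.27%) were higher and 279 (1.53%) lower. DESeq2 on the recovered whole reads called 1 gene (0.00548%), with 444 at an unadjusted p under 0.05, and the quasi-likelihood test of edgeR called 0, with 490 at an unadjusted p under 0.05. The groups did not overlap for 100 genes (0.548%), with the treated libraries all above for 52 (0.285%) and all below for 48 (0.263%). The differences were small as well as uncalled: the median log2 fold change was 0.0032, the median size without sign 0.085, and the central 95% of genes lay between -0.52 and 0.58.

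The data also bounded the change. A gene was counted as held where the whole 95% limma interval of its log2 fold change lay within 1.5-fold in either direction. This was so for 11989 genes (65.7%). The share rose with the level, from 15.6% of the 5831 genes with a mean of 10 to under 100 normalised read counts, to 85% of 6985 genes between 100 and 1000, and 94.8% of 5427 genes above. For most genes at low levels a change past 1.5-fold was thus not excluded. A total of 800 genes differed by more than 1.5-fold and 150 by more than 2-fold, of which 680 and 133 had a mean under 100. The spread within a group was alike in both groups, with a median SD of the log2 value of 0.21 in untreated and 0.2 in treated libraries, and the SD was larger at 14 days for 47.3% of genes.

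**Figure D2:**
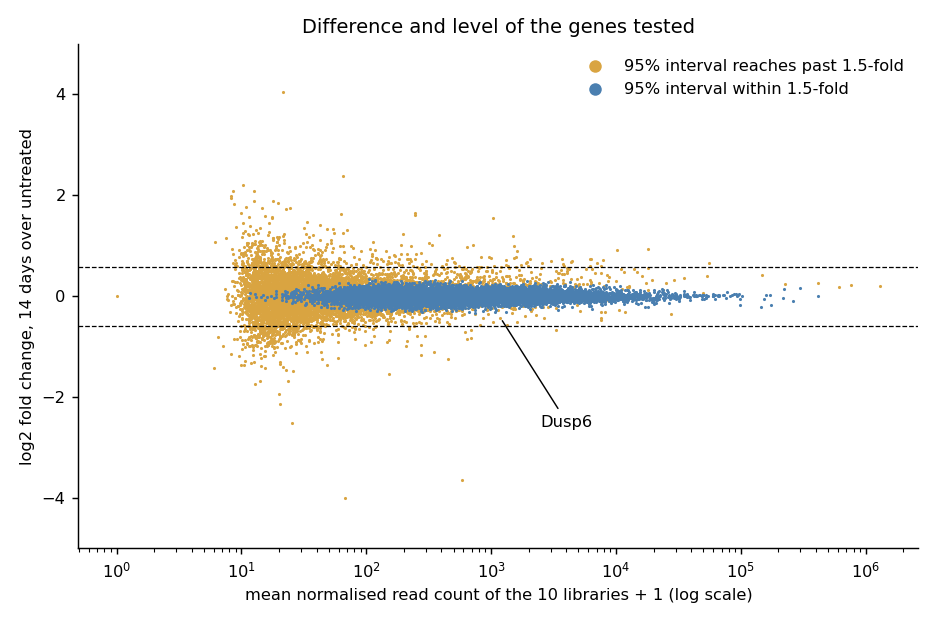
Log2 fold change of 14 days over untreated against the mean normalised read count of the 10 libraries plus 1 (log scale), 1 point per gene, for 18243 genes. Blue points are the 11989 genes whose 95% limma interval lay within 1.5-fold (dashed lines); the scatter narrows as the level rises, and Dusp6 lay at -0.43.

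The gene with the smallest p was Dusp6, a phosphatase that switches off ERK kinases and is itself induced by ERK signalling (chr10:99263228-99267488, mm10). Its normalised read counts were 1375, 1271, 1399, 1264 and 1483 in the untreated libraries and 1108, 895, 1004, 991 and 1049 after 14 days. Every treated library was below every untreated one. The log2 fold change was -0.43 (SE 0.075, 95% interval -0.59 to -0.27, n = 5 and 5, unadjusted p = 1.39e-05 and adjusted p = 0.253 by limma), which missed the threshold; Dusp6 was the single gene that DESeq2 called (adjusted p = 0.0036), and it also passed in limma with the adipocyte score as a covariate (adjusted p = 0.0436). With any 1 library left out the log2 fold change stayed between -0.46 and -0.39. At 1 and 3 days, against the same untreated libraries, the 5 libraries lay at 994 to 1156 and 876 to 1130.2, with log2 fold changes of -0.34 (adjusted p = 0.00471 by limma) and -0.47 (adjusted p = 0.00523). Under the lymph node label, in other libraries with their own controls, Dusp6 was read at 1245 to 1441 in 3 untreated and 922 to 1202 in 4 treated libraries, which is -0.4 on the log2 scale (adjusted p = 0.091). Those groups did not overlap either.

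Of 20 tested genes that ERK signalling induces or that restrain it, Dusp6 alone had an unadjusted p under 0.05. In all 13 were below 0 and 14 were held, and their median log2 fold change was -0.033. The related phosphatases Dusp4, Dusp5 and Dusp7 had log2 fold changes of -0.24 (95% interval -0.63 to 0.15), -0.096 (-0.42 to 0.23) and -0.066 (-0.19 to 0.057). The transcription factor Egr1 was at -0.2 (-0.46 to 0.067), and Spry2, a Sprouty inhibitor of receptor signalling, at 0.12 (-0.15 to 0.4). At 1 day, 5 of these 20 genes were called lower and 1 higher by limma, against the same untreated libraries and beside 16.6% of all genes called, with Egr1 among the lower ones at -0.68 (adjusted p = 0.00188 by limma).

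Among the other genes with the smallest p, lower levels were found for genes of varied roles. The adjusted p was 1 by limma for every gene but Dusp6, so that an SE or 95% interval is given for the values that matter most. Ttll7, an enzyme that adds glutamate to tubulin, was read at 139, 128, 142, 130.5 and 157 without and 74.7, 100.3, 112, 97 and 74.5 with NAM. The groups did not overlap (log2 fold change -0.61, SE 0.15, 95% interval -0.93 to -0.3), and at 1 day Ttll7 had been at -0.027, so that 14 days differed from 1 day by -0.59 (adjusted p = 0.0177 by limma). Prg3, a granule protein of eosinophils, was read at 398, 343, 306, 372 and 375 in untreated and at 288, 219, 230.3, 239 and 256 in treated libraries. Again all treated libraries were lower (-0.54, SE 0.14, 95% interval -0.83 to -0.25); at 1 and 3 days Prg3 was called lower, at -0.46 (adjusted p = 0.0304 by limma) and -0.64 (adjusted p = 0.0139). Acsbg1, which activates long fatty acids, was below the untreated range in all treated libraries, with 498 to 639 and 389 to 473, at a log2 fold change of -0.29 (95% interval -0.46 to -0.12). Actn2, a crosslinker of actin in muscle, was at 105 to 199 and 81.5 to 89.3 (-0.65, 95% interval -1.01 to -0.28). Slc16a5, a carrier of the monocarboxylate family, the Wnt receptor Fzd10, the carboxypeptidase Cpz and the transcript 4933430I17Rik were at -0.66, -0.51, -0.7 and -0.89 on the log2 scale, each with overlapping groups.

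Gm8994, a predicted gene, was all or none in the treated libraries. Its normalised read counts were 107, 104, 99.4, 69.6 and 105 in the untreated and 0, 0, 87.9, 90.0 and 0 in the 14-day libraries. Replicates 3 and 4 were thus within the untreated range and replicates 1, 2 and 5 had no read, whereas all 5 libraries at 1 day (88.5 to 192) and at 3 days (92 to 171) had reads. Its log2 fold change of -4.0 rests on those 3 zeros.

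Higher levels with small p were mostly small in size. Ttc9c, a protein with tetratricopeptide repeats, was read at 2489.9, 2424, 2483, 2371 and 2305 and then at 2899, 2741, 2762, 2619.9 and 2792. The groups did not overlap, with a log2 fold change of 0.19 (SE 0.05, 95% interval 0.089 to 0.3). Tnfsf9, the ligand of the T cell costimulatory receptor 4-1BB, was read at 104, 107, 89, 107 and 95 in untreated and 134, 172, 162, 111 and 113 in treated libraries. All treated values were above (0.44, SE 0.13, 95% interval 0.17 to 0.71); the log2 fold change was 0.44 at 1 day (adjusted p = 0.0233 by limma), 0.37 at 3 days (adjusted p = 0.094) and 0.5 under the lymph node label (adjusted p = 0.251). Tex14, known from the bridges between germ cells, stood at 14.9 to 20.8 and 22.3 to 51.5 (0.98, 95% interval 0.42 to 1.55). Fam3a, a mitochondrial protein, Apex2, an endonuclease of DNA repair, and Ubl3, a ubiquitin-like membrane protein, were also above without overlap, by 0.3, 0.32 and 0.18. Ccdc58, a mitochondrial protein, was higher by 0.28 with groups that overlapped. The histone gene Hist1h2ae, at most at 14.9 in any of the 10 libraries, and the interferon-induced Apol9a and Gbp10 complete the 10; all 3 have close paralogues whose reads the counting may have split, which makes their values uncertain.

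**Figure D3:**
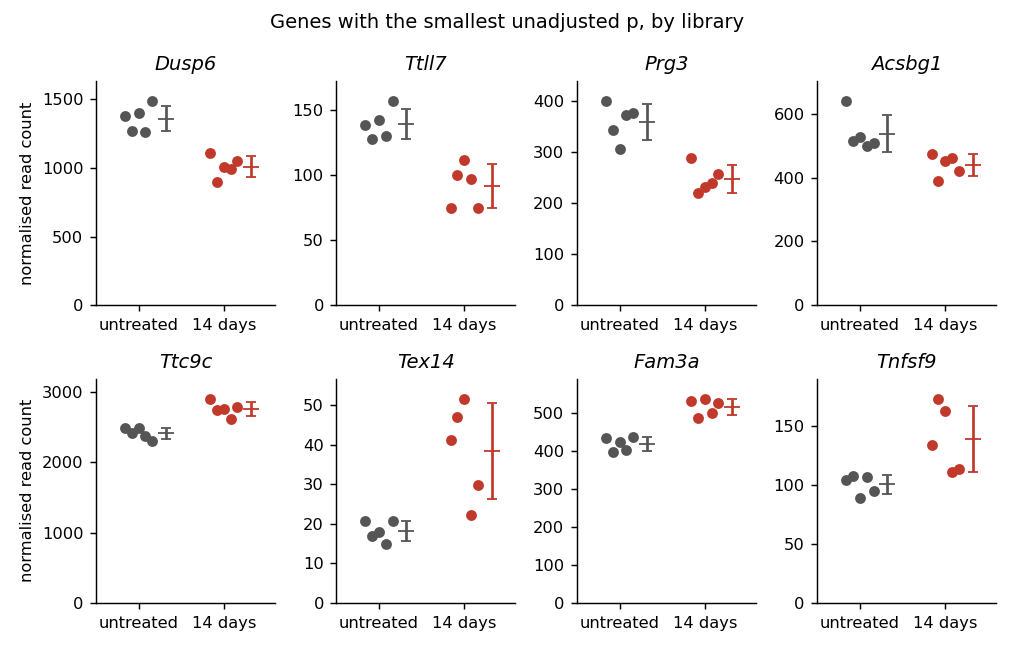
Normalised read count by library of 8 genes among the 20 with the smallest unadjusted p, 4 lower and 4 higher at 14 days. Points are the 5 untreated (grey) and 5 treated (red) libraries, and bars the mean and SD; the groups do not overlap in any panel, and no gene passed the adjusted threshold in limma.

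Of these 20 genes, 11 had groups that did not overlap. That count describes genes picked for their small p in the same contrast and supports nothing by itself. The 20 genes were all tested under the lymph node label, where 13 of 20 had the same sign and 6 an unadjusted p under 0.05. Apex2, Ubl3, Tnfsf9 and Dusp6 had the same sign in both, and Apol9a and Gbp10 the opposite one, at -0.96 and -0.88 there. Gbp10 was the 1 gene called (adjusted p = 0.036 by limma), against 144 genes called in all under that label (0.791%).

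Genes of NAD metabolism stayed near their untreated level. Of 18 tested genes of NAD salvage, NAD synthesis and NAM methylation, 0 had an unadjusted p under 0.05 and 14 were held, with a median log2 fold change of 0.074. Nampt, the rate-limiting enzyme of salvage, was read at 2481, 3190.4, 2533, 2851 and 2236 in untreated and 2869, 2845, 2765, 2778 and 3025 in treated libraries. The groups overlapped, and the interval of its log2 fold change of 0.11, -0.12 to 0.35, excluded a rise or fall of 1.5-fold. Nmnat1, which makes NAD in the nucleus, was at 0.17 and Nadk, which makes NADP, at 0.057. Nnmt was read at 123, 367, 217, 293 and 389 and then at 176, 563, 169.7, 542 and 689. It overlapped widely, with 3 treated libraries above all untreated ones and 2 in their lower range, and a log2 fold change of 0.5 (95% interval -0.39 to 1.38). The 3 high libraries are replicates 2, 4 and 5, which also had the highest adipocyte scores of all 10; with that score as a covariate the log2 fold change of Nnmt was 0.16. At 1 day Nnmt was called higher, at 1.44 (adjusted p = 0.0259 by limma); 14 days differed from 1 day without passing the test (adjusted p = 0.166). The highest fold of the list belonged to Nudt12, an NADH pyrophosphatase, at 1.02 (95% interval -0.34 to 2.39), with 1.73 in untreated replicate 1 and 29.7 to 80.4 in the other 9 libraries. The lowest belonged to Qprt, an enzyme of NAD synthesis from tryptophan, at -0.24 (95% interval -0.56 to 0.072).

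The enzymes that consume NAD were constant within tight bounds. All 19 tested were held and 0 had an unadjusted p under 0.05, with a median of 0.0087 that turned below 0 under TMM scaling and quantile normalisation. Parp1, the most expressed of them, was read at 8174 to 9451 and 7557 to 9361 (-0.017, 95% interval -0.18 to 0.14). Sirt1 was at 0.13 (-0.06 to 0.32) and Cd38, the NAD hydrolase of immune cells, at -0.13 (-0.36 to 0.095). The extremes of the list were Tnks at -0.18 and Sirt5 at 0.18. Of 24 genes of the one-carbon and methionine cycle, 21 were held and 1 was higher at an unadjusted p under 0.05. This was Mat2a, the enzyme that makes S-adenosylmethionine, with 2439.7, 2737, 2552, 2477 and 2524 in untreated and 2696, 3182, 2942, 2910.2 and 3195 in treated libraries. The groups overlapped by 1 library (0.23, SE 0.074, 95% interval 0.074 to 0.38). At 1 day Mat2a was at 0.58, and 14 days was lower than 1 day (adjusted p = 0.00645 by limma).

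Type I interferon response genes leaned upwards without passing the test. Of 43 tested, 39 had a log2 fold change above 0 against 51.2% of all genes. An unadjusted p under 0.05 was found for 6, all higher. The median was 0.16, with 0.11 without untreated replicate 5 and 0.23 without untreated replicate 2 as the ends of its range. The members can move together, and by library the groups overlapped. The list score was 9.56 to 10.08 in untreated and 9.74 to 10.2 in treated libraries. Untreated replicate 2 lay above all treated libraries but replicate 5. Ifit3, which binds foreign RNA together with Ifit1, was read at 1146, 2187, 1299, 1578 and 1133 without and 1989, 1823, 2153, 2019.5 and 3873 with NAM. The highest value was that of treated replicate 5, and untreated replicate 2 lay within the treated range (0.68, SE 0.2, 95% interval 0.26 to 1.09). Ifit1 was read at 706, 1283, 765, 969 and 537 and 1056, 931, 1277, 942 and 1748 (0.5, SE 0.21, 95% interval 0.076 to 0.93). Ifit3b is a near copy of Ifit3 with which it may share reads. Ifit3b, Rtp4, Oasl1 and Mx2, all interferon-induced, were at 0.64, 0.39, 0.37 and 0.33, each with groups that overlapped. Isg15, the ubiquitin-like modifier, missed an unadjusted p of 0.05 (469, 750.1, 555, 557 and 408 against 647, 635, 698, 513 and 1071; 0.37, 95% interval -0.0023 to 0.73), and Irf7, the factor that amplifies the response, was at 0.25 (95% interval -0.094 to 0.59).

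The promoters of 3 of these interferon genes are shown because they hold an element known from interferon-induced genes. The core of the interferon-stimulated response element, spelled GAAANNGAAA and searched on both strands, is in capitals in the 250 bases before the RefSeq start sites (GRCm38.p6, strand of the gene, 5′ to 3′) of Ifit1 (chr19:34640639-34640888, plus strand), Ifit3 (chr19:34583279-34583528, plus strand) and Isg15 (chr4:156200819-156201068, minus strand).
Ifit1: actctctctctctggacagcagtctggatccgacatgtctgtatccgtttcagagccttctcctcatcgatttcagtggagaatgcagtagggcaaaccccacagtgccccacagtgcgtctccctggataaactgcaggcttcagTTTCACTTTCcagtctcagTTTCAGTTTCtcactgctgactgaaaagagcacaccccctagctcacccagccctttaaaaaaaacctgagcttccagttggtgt
Ifit3: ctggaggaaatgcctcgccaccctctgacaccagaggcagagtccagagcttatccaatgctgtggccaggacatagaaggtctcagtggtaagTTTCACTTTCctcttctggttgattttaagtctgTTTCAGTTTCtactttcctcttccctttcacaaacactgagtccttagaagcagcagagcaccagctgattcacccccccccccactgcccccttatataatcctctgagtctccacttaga
Isg15: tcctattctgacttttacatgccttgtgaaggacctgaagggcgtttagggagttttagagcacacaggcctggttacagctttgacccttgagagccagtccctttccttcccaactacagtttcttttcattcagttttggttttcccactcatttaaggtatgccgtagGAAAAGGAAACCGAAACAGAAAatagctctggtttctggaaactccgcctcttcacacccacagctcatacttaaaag
Ifit1 and Ifit3 hold 2 matches each and Isg15 holds 3 that overlap one another, whereas the window of Oasl1, which is not printed, holds 0. Of 31 list members with a promoter entry 16 held a match (51.6%), against 936 of all 27025 genes with an entry (3.46%). The members were chosen as known interferon-induced genes, so the higher share follows from that choice and says nothing about NAM. The 16 genes with a match had a median log2 fold change of 0.14, and the 15 without one of 0.18, so the lean upwards was found in both. A match is a description of the letters and not of binding.

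Many of these genes had been higher at 1 day. Against the same untreated libraries, the median of the list was 0.44 at 1 day, 0.092 at 3 days and 0.16 at 14 days, and 26 of the 43 genes were called higher at 1 day, where 3030 of all genes were called (16.6%); at 3 days 1013 were (5.55%). Tested directly, 10 of the 43 were lower at 14 days than at 1 day and 0 higher, where 987 of all genes were called lower (5.41%) among 1940 called in either direction (10.6%). Isg15 differed from its 1-day level by -0.83 (adjusted p = 0.00682 by limma) and Ifit1 by -0.66 (adjusted p = 0.0426). The list leaned the other way under the lymph node label at 14 days, with a median of -0.4 and 36 of 43 genes lower at an unadjusted p under 0.05, 9 of them called by limma, where 6.62% of all genes were lower at that unadjusted p and 0.791% were called, with Isg15 (-0.86, adjusted p = 0.0138) and Irf7 (-0.62, adjusted p = 0.0138) among them. The difference between the labels was not tested.

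Targets of interferon-gamma also lay mostly above 0, with a smaller median. Of 19 tested, 16 had a log2 fold change above 0 with a median of 0.052, 17 were held and 1 was higher at an unadjusted p under 0.05, the immunity GTPase Iigp1, with 2477 to 3712 and 3123 to 4533 (0.36, 95% interval 0.051 to 0.67). Ido1, which degrades tryptophan, had the highest fold at 1.6 (95% interval -0.58 to 3.79), with values of 5.19, 417, 59.3, 358 and 10.3 and 45.8, 39.2, 285, 847 and 361 that ranged widely in both groups. Cxcl9 and Cxcl10, which attract T cells through Cxcr3, were at -0.038 (-0.43 to 0.35) and 0.33 (-0.053 to 0.72). For Cxcl10 the treated values were 589, 596, 623, 493 and 1064, with replicate 5 far above the others. Ccl2, which attracts monocytes, was at 0.46 (95% interval -0.19 to 1.12), with 138 to 483 and 229 to 403.

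Inflammatory chemokines and their receptors leaned downwards. Of 29 tested, 20 were below 0, 17 were held and 4 were lower at an unadjusted p under 0.05, with a median of -0.087. The median was -0.013 without untreated replicate 3 and -0.0059 with the adipocyte score as a covariate. Ccr1, found on monocytes and granulocytes, stood at 215, 128, 181, 149 and 200.2 and 89.7, 163, 130.3, 115 and 109 (-0.52, 95% interval -0.88 to -0.17). The macrophage chemokine Ccl6 was at -0.57 (95% interval -1.09 to -0.053) and Xcr1, the receptor of cross-presenting dendritic cells, at -0.24 (95% interval -0.46 to -0.013). The chemokines that steer recirculation were flatter, with 16 of 18 held and 0 at an unadjusted p under 0.05; Cxcl13, which guides B cells to follicles, had the lowest fold (-0.29, 95% interval -0.64 to 0.054).

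Lymphocyte genes were constant. All 24 T cell genes were held, with 22 below 0 and a median of -0.076 that was 0.034 with the adipocyte score as a covariate and between -0.148 and -0.00985 with 1 library left out. So were all 22 B cell genes, with a median of 0.024. All 19 genes of MHC class I presentation and all 19 of class II presentation were held, with medians of 0.041 and 0.00019. For the T cell, B cell and both MHC lists, 0 genes had an unadjusted p under 0.05. Of 20 genes of cytotoxic lymphocytes 16 were held; the granzyme Gzmk had the highest fold (0.74, 95% interval -0.54 to 2.02) through treated replicate 1 alone, at 85 against 1.73 to 20.7 in the other 9 libraries. Of 14 germinal centre genes 9 were held. Macrophage and monocyte genes leaned lower. Of 22 tested, 18 were below 0 with a median of -0.12, which was -0.051 without untreated replicate 3, and Adgre1, the F4/80 antigen, was lower at an unadjusted p under 0.05 (216, 309.6, 297, 312 and 362 against 215, 237, 235, 259.7 and 245; -0.31, 95% interval -0.59 to -0.03). Cd163, the haemoglobin scavenger receptor, had the lowest fold (-0.61, 95% interval -1.58 to 0.37) on a range of 90.0 to 460.2 in untreated mice. Among 10 tested genes of the red pulp and of the spleen mesenchyme, Spic (-0.25, 95% interval -0.49 to -0.0046) and the iron exporter of phagosomes Slc11a1 (-0.22, 95% interval -0.41 to -0.022) were lower at an unadjusted p under 0.05, with groups that overlapped.

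**Figure D4:**
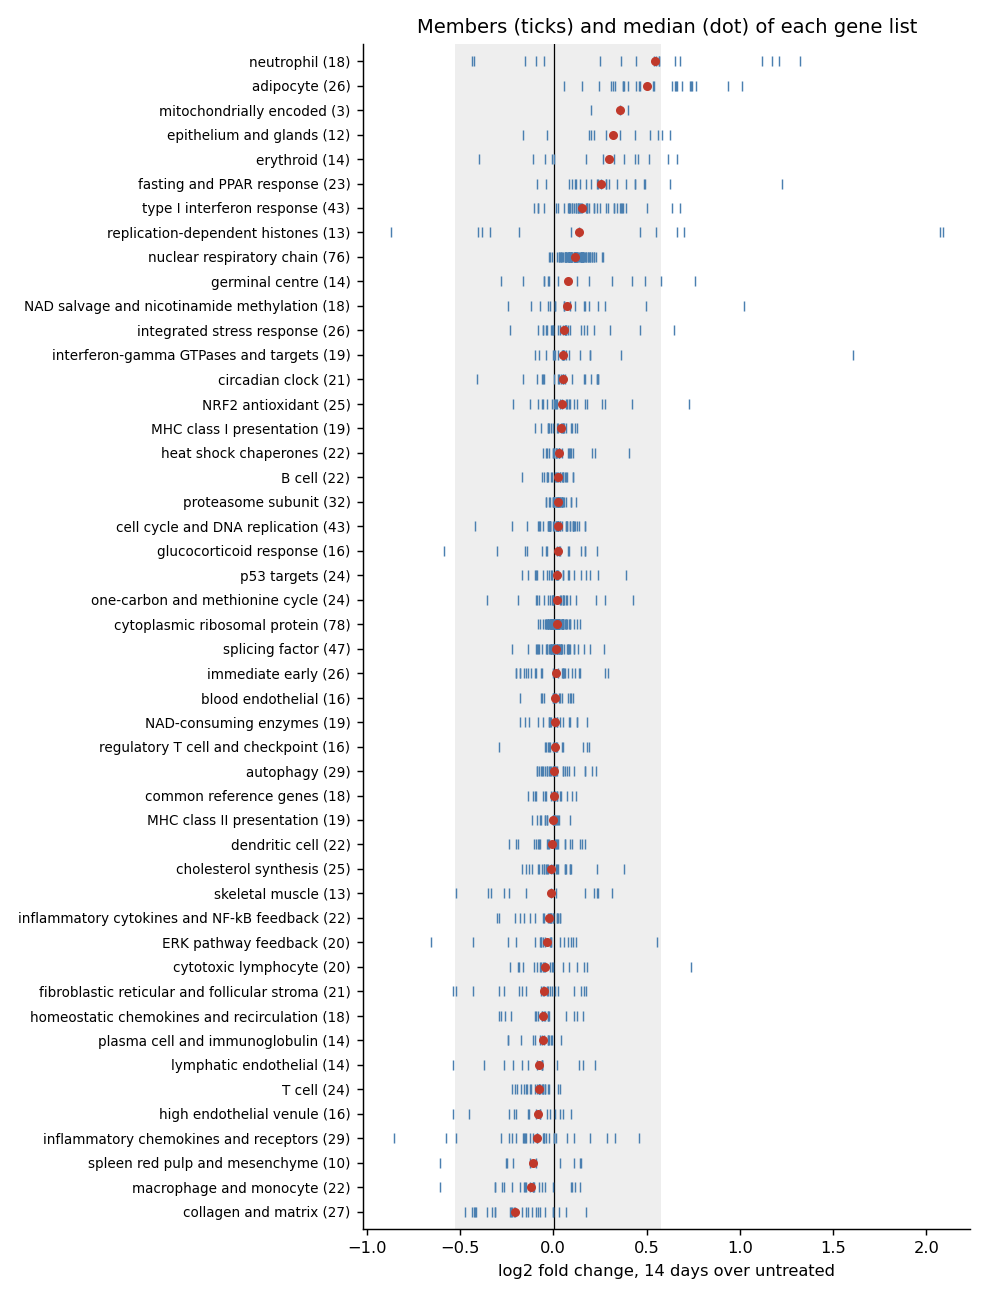
Log2 fold change of 14 days over untreated for the tested members (ticks) of 48 gene lists and their medians (dots), with the number tested in parentheses. The grey band holds the central 95% of all genes, from -0.52 to 0.58, and the line is their median; 36 of 48 medians lie within 0.1 of 0, and the neutrophil and adipocyte lists are the highest at 0.55 and 0.5.

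Vessel and stromal lists differed in how many of their genes were held. All 16 genes of blood endothelium were, against 9 of 14 of lymphatic endothelium, 15 of 21 of reticular and follicular stroma and 9 of 27 of collagen and matrix. Of 16 genes of high endothelial venules 13 were held and 1 was lower at an unadjusted p under 0.05. This was Madcam1, an addressin for gut-homing lymphocytes that is also made by follicular and lymphatic stroma, with 306, 216, 402, 234 and 331 and 285, 176, 217, 169 and 173. The groups overlapped through treated replicates 1 and 3 (-0.54, SE 0.19, 95% interval -0.94 to -0.14), and at 1 day Madcam1 was called lower (-0.69, adjusted p = 0.0177 by limma). Glycam1 was at -0.21 (-0.58 to 0.16). Foxc2, which shapes lymphatic valves, was at -0.37 (95% interval -0.72 to -0.017).

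Among the 48 lists, the gland and adipocyte lists varied most within groups, with a median SD of the log2 value of 1.44 and 1.05. The neutrophil list came next at 0.95, and the collagen list had 0.69. All 26 adipocyte genes had a log2 fold change above 0, with a median of 0.5, yet 0 had an unadjusted p under 0.05, 0 were held and 0 had groups that did not overlap. Adipoq, the hormone of fat cells, was read at 3148, 15586, 6293, 16278 and 15404 in untreated and 5351, 20912, 8206, 23790 and 23048 in treated libraries. In each group replicates 1 and 3 were low and replicates 2, 4 and 5 high, so a log2 fold change of 0.54 had an interval of -0.54 to 1.62. Each treated library was above the untreated library of the same number for Adipoq. No label ties these numbers, and with the number as a block 0 of all genes were called. The median of the list was 0.15 without untreated replicate 1 and 0.86 without treated replicate 1. Genes of fasting and of PPAR targets, many of which fat cells express, had a median of 0.26, with 21 of 23 above 0 and 0 at an unadjusted p under 0.05; it was 0.08 with the adipocyte score as a covariate. Collagen and matrix genes leaned the other way, with 24 of 27 below 0 and a median of -0.2. Col1a1, the chain of type I collagen, had the lowest fold (-0.47, 95% interval -1.42 to 0.47), with values of 3061, 10449, 5257, 6392 and 20250 and 3235, 10931, 3142, 8068 and 4686. Untreated replicate 5 decided this direction, as the median of the list was 0.021 without that library. With the adipocyte score as a covariate the median was -0.47 and 10 of the 27 had an unadjusted p under 0.05, where 846 of all genes had one.

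Neutrophil genes had the highest median, 0.55 over 18 tested, on wide ranges, with 13 above 0, 5 below and 2 held. Mmp9, a protease that degrades matrix, had the lowest fold at -0.43 (95% interval -0.89 to 0.018). Camp, an antimicrobial peptide, had the highest fold at 1.32 (95% interval -0.91 to 3.56), with 0, 35.8, 89, 24.9 and 61.9 and 52.3, 18.8, 81.8, 48.5 and 122. Untreated replicate 1, with no read of Camp, had the lowest mean level of the list at 4.76 against 6.02 to 6.98 in the other 9 libraries, and the median of the list was 0.2 without that library. The red cell genes had a median of 0.3, which was 0.12 without untreated replicate 1, and 4 of 14 were held. In these lists 0 genes had an unadjusted p under 0.05.

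Stress and metabolic pathways showed single genes at the edge. Of 26 genes of the integrated stress response 20 were held, and Atf4, its transcription factor, was read at 6954, 6841, 6915, 6902 and 6475 and 7187, 7925, 8387, 7048 and 7756. All treated libraries were above (0.17, SE 0.057, 95% interval 0.047 to 0.28), and Atf4 was the only member of its list without overlap. Chac1, a target of Atf4, was at 0.64 (95% interval -0.42 to 1.71), and between 0.076 and 0.88 with 1 library left out. Of 22 heat shock chaperones 20 were held and Dnajb1, a partner of Hsp70, was at 0.21 (95% interval 0.031 to 0.38). Among 26 immediate early genes 24 were held and Jun was at 0.29 (95% interval 0.014 to 0.58). Of 29 autophagy genes 27 were held, with Atg16l1 at 0.17 (95% interval 0.025 to 0.32). In the lists of cholesterol synthesis, NRF2 targets, p53 targets, glucocorticoid response and the circadian clock, 0 genes had an unadjusted p under 0.05, and 22 of 25, 19 of 25, 20 of 24, 13 of 16 and 13 of 21 were held.

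Large protein machines of the cell were held almost throughout. Of all genes, 94.8% were held at means of at least 1000 normalised read counts and 85% between 100 and 1000. All 32 proteasome subunits and all 47 splicing factors were held, as were 77 of 78 ribosomal proteins and 42 of 43 genes of the cell cycle. Even so, 2 splicing factors were higher at an unadjusted p under 0.05, Tra2b (0.2, 95% interval 0.051 to 0.34) and the kinase Clk1 (0.27, 95% interval 0.017 to 0.53). Replication-dependent histone genes were read at low levels for the most part, with 2 of 13 tested genes held, a median of 0.14, and Hist1h2ae and its paralogue Hist1h2ag higher at an unadjusted p under 0.05. All 18 common reference genes were held. Actb was at -0.054, Gapdh at 0.099, B2m at 0.019, Hprt at 0.042, Ppia at 0.034, Rplp0 at -0.0029, Eef1a1 at 0.0073, Eef2 at -0.037, Ywhaz at 0.0099, Pgk1 at 0.075, Sdha at 0.12, Gusb at -0.044, Rpl13a at 0.018, Tfrc at -0.11, Ptprc at -0.096 and Tbp at -0.14. Tbp, the TATA-binding protein, was the 1 reference gene without overlap, with 1029 to 1081 in untreated and 926 to 977 in treated libraries (log2 fold change -0.14, 95% interval -0.29 to 0.02). The values within each group lay close together.

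Nuclear genes of the respiratory chain leaned upwards by a small amount. Of 76 tested, 73 had a log2 fold change above 0, 75 were held and 0 had an unadjusted p under 0.05, with a median of 0.12 that was 0.062 without treated replicate 5, 0.18 without treated replicate 1 and 0.066 with the adipocyte score as a covariate. Uqcrq, a subunit of complex III, had the highest fold (0.27, 95% interval -0.1 to 0.64), with 1783, 2352, 2193, 2274 and 2055 and 1910.2, 2837, 2171, 2957 and 3127. Untreated and treated libraries overlapped, and treated replicates 2, 4 and 5 were the highest. The median had been 0.37 at 1 day and 0.2 at 3 days. At 1 day 44 of the 76 were called higher beside 16.6% of all genes called. The adipocyte list had medians of 1.01 and 0.46 at 1 and 3 days, and its part in this was not tested. Between 14 days and 1 day, 26 of the 76 were called lower and 0 higher, where 5.41% of all genes were called lower. Reads of the mitochondrial chromosome took 8.92% to 9.85% in untreated libraries, 8.44% and 9.13% in treated replicates 1 and 3, and 11.7% to 11.9% in treated replicates 2, 4 and 5. Of 13 rows on that chromosome, 10 were above 0 with a median of 0.21, and mt-Rnr1, the small ribosomal RNA, was at 0.4 (95% interval 0.013 to 0.79). The same treated replicates 2, 4 and 5 had the high adipocyte scores of their group. Untreated replicates 2, 4 and 5 had high scores too, with mitochondrial shares of 9.2%, 9.85% and 8.92%. In untreated replicates 1 and 3 the shares were 9.23% and 9.07%. With the adipocyte score as a covariate mt-Rnr1 was at 0.29. The part of the adipocyte score in the mitochondrial reads was not tested.

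**Figure D5:**
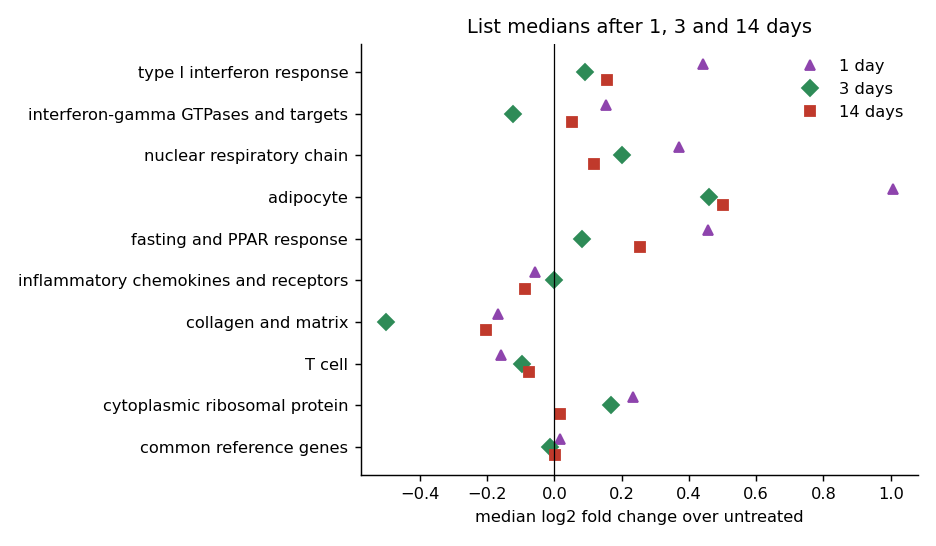
Median log2 fold change over the same 5 untreated libraries after 1 day (triangles), 3 days (diamonds) and 14 days (squares) of NAM for 10 gene lists. The interferon and respiratory chain medians were 0.44 and 0.37 at 1 day and 0.16 and 0.12 at 14 days, and the medians of the common reference genes stayed within 0.018 of 0.

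Over all 48 lists, 1086 genes were tested and 27 of them (2.49%) had an unadjusted p under 0.05, 17 higher and 10 lower, close to the 2.8% of all genes. A total of 846 were held (77.9%), against 65.7% of all genes. The lists were not matched to all genes for level, and the held share over all genes rose with the level. With 1 library left out, the medians of 46 of the 48 lists moved by over 1.5 times and 27 changed sign, most of them near 0. Of the 12 lists with a median past 0.1 in size, 10 moved by as much, and the collagen, gland and histone lists changed sign. In 9 lists every tested member was held, in 36 the median lay within 0.1 of 0, and in 30 no member had an unadjusted p under 0.05.

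The genes with the largest spread were read in some mice and not in others, whatever the treatment. Calca, the precursor of calcitonin and of a neuropeptide, was at 605 in untreated replicate 5 and at 795 in treated replicate 2, and at most at 6.21 in the other 8 libraries. The keratinocyte serpin Serpinb11, the retinoid carrier Crabp1, the elastic fibre protein Mfap4 and the glutamate receptor Gria1 were highest in the same pair of libraries. Gm14440, a zinc finger gene, was at 580 in untreated replicate 1, at 379 in treated replicate 4 and at 0 in the other 8. Zfp965, another zinc finger gene, was at 0 in 7 libraries and at 80.3 to 208 in the other 3. Capn11, a protease, 2810047C21Rik1 and the urinary protein Mup7 were likewise at 0 in libraries of both groups.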

How the data were processed

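PolyA RNA was sequenced as paired-end reads from organs labelled spleen or lymph node. The authors deposited 1 table, in which each gene has a signal, its read count in a library over the DESeq2 size factor of that library. The submitters' processing notes name STAR 2.4.0, Picard, SAMtools, FastQC and the mm10 assembly; strand use in counting is not given in the sources used here, so reads of overlapping or near-identical genes may be shared. In every library 100% of values were whole multiples of 1 step (within 0.01 reads), which returned whole reads. Recomputed size factors matched the deposited ones for the libraries labelled spleen (ratios of 0.9998 to 1.0001), and the other label was scaled separately. Among 20 replicate pairs, 0 held identical values and a chi-square test put each pair further apart than counting noise (at least 8.71 per degree of freedom).

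Groups and replicate numbers came from the sample titles. Genes with a mean of at least 10 over the 20 libraries labelled spleen were tested as log2(value + 1) in 1 limma trend fit with all 4 groups (limma 3.58.1, R 4.3.3), two-sided, with Benjamini-Hochberg adjustment over 18243 genes and a threshold of 0.05; folds on this scale understate the change of low genes. The lymph node label had its own fit. edgeR 4.0.16 and DESeq2 1.42.0 were run on the recovered reads. A list score is the mean log2 value of its tested members. The fits were tested on simulated data. The members and the 48 gene lists were chosen with earlier results of these data known. The genes named are the 10 with the smallest p in each direction among rows with 1 symbol, a panel of 13, the extremes of each list and its members at p under 0.05, the 10 with the largest spread within groups, genes called in an alternative, and the reference genes; others were chosen after their values were seen. A few genes under this rule are not reported here. The replicate number was also fitted as a block. Depth limits the precision of rows with few reads.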

Additional observations from a re-analysis of the deposited data

Results flagged for a closer look

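In 26 of 326 sets of 5 values, 1 library stood apart from the other 4 by a gap over 0.71 of the range of its group (Dixon's 95% limit, which chance passes in about 1 in 20 sets). Some genes were named for their wide spread. The mean log2 value of the integrated stress response list was 9.399 in untreated replicate 1 and 9.589 to 9.645 in the other untreated libraries. In normalised read counts, untreated replicate 1 was also apart for Acsbg1 (638.9 against 498.3 to 528), Chac1 (3.463 against 26.35 to 34.79) and Gm14440 (580.0 against 0). Untreated replicate 2 was apart for Zfp965 (126.1 against 0), untreated replicate 3 for Slc11a1 (1068 against 765.5 to 825.4) and Cideb (14.83 against 3.463 to 6.193), and untreated replicate 4 for Gm8994 (69.59 against 99.36 to 107.4). Untreated replicate 5 was apart for Atf4 (6475 against 6841 to 6954), Gapdh (9491 against 10151 to 10409), Calca (604.8), Serpinb11 (70.19), Crabp1 (107.3), Mfap4 (99.09) and Gria1 (135.2), the last 5 against at most 24.85. Treated replicate 1 was apart for Cxcl13 (2534 against 1566 to 1779) and Gzmk (85.0 against 6.269 to 16.14), and treated replicate 2 for Calca (794.7), Serpinb11 (95.61) and Mfap4 (72.1), against at most 14.68. Treated replicate 4 was apart for Foxc2 (81.67 against 57.91 to 63.63), Gm14440 (379 against 0) and 2810047C21Rik1 (54.24 against 0). Treated replicate 5 was apart for Cxcl10 (1064 against 492.6 to 622.6), Ifit3 (3873 against 1823 to 2153) and Ifit3b (984.4 against 400.1 to 485.7).

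The effect of NAM differed between 14 days and 1 day, by the limma contrast of both groups with adjustment over all genes, for 16 of 115 genes named, beside 10.6% of all genes; values are on the log2 scale. Among interferon genes Isg15 (-0.827, adjusted p = 0.00682), Ifit3 (-0.768, adjusted p = 0.0181), Ifit3b (-0.885, adjusted p = 0.0171) and Ifit1 (-0.664, adjusted p = 0.0426) were lower at 14 days. Ttll7 (-0.585, adjusted p = 0.0177), Mat2a (-0.348, adjusted p = 0.00645), Adgre1 (-0.451, adjusted p = 0.0375) and Fcer1a (-1.14, adjusted p = 0.0429) were lower too, as was Gm8994 (-4.5, adjusted p = 0.00948), which rests on 3 libraries with no read. Egr1 (0.478, adjusted p = 0.021) and Tra2b (0.232, adjusted p = 0.0368) were higher. Of the reference genes, Gapdh (0.514, adjusted p = 0.017) and Tbp (0.366, adjusted p = 0.00565) were higher, and Hprt (-0.36, adjusted p = 0.00789), Pgk1 (-0.704, adjusted p = 0.00398) and Tfrc (-0.515, adjusted p = 0.0454) lower.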

How the results depend on the processing

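The count of 0 genes changed was 0 under every alternative but these: DESeq2 called 1 (Dusp6), the adipocyte score as a covariate 3 (Dusp6, Lctl and Orm1), no filter on low values 1 (GSMG0023400), and the rule of an unadjusted p of at most 0.05 with 1.5-fold 204 (80 higher, 124 lower), whose p is not adjusted. Genes at an unadjusted p under 0.05 numbered 846 with the covariate, 315 with a mean of at least 50 (14042 genes tested), 1391 without a filter (34590 tested) and 434 to 693 with 1 library left out. Genes changed between 1 and 14 days numbered 1940, and 1214 to 1816 with 1 library left out, the fewest without treated replicate 1. The median of the skeletal muscle list was -0.265 without a filter, and that of the immediate early list was -0.0422 to 0.069 with 1 library left out. The fold change of Parp1 turned to 0.0323 with the covariate and 0.0253 with library weights (-0.0439 to 0.0333 with 1 library left out), that of Cxcl9 to 0.0152 with the covariate (-0.188 to 0.0516), and that of Kit to -0.0913 and -0.0197 (-0.0933 to 0.168); the cause was not tested. The count of held genes was within 1.5 times its value under all 22 alternatives that give an interval. With the replicate number as a block 0 genes were called and 554 had an unadjusted p under 0.05; same-numbered libraries correlated at -0.0979 to 0.468 over their deviations, and 2 of 5 numbers correlated best with their own, so the number was taken as shared in name only. At a mean under 100, 15.6% of genes could be held within 1.5-fold.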

Other observations

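Genes known from mast cells were chosen after their values were seen and were not tested as a group. Several of them, though not all, had folds below the central 95% of all genes. That range was wider at means of 10 to under 100, at -0.78 to 0.84, which holds the fold of Mrgprb1. Cpa3, the carboxypeptidase of mast cell granules, whose row also bears the name of a microRNA, was read at 393, 483, 408, 372 and 735 in untreated and 187, 159.9, 185, 305 and 262 in treated libraries. All treated libraries were lower, with a log2 fold change of -1.11 (SE 0.27, 95% interval -1.67 to -0.56, adjusted p = 1), the second smallest p of all genes. Mcpt4, a chymase of connective tissue mast cells, was read at 799.9, 899, 728, 603 and 1060 and 403, 345, 367, 553 and 599.6, again without overlap (-0.86, 95% interval -1.4 to -0.32). Cma1 (-0.96, 95% interval -1.59 to -0.34), Tpsb2 (-0.8, 95% interval -1.42 to -0.18) and the receptor Mrgprb2 (-1.37, 95% interval -2.46 to -0.29) were lower with groups that overlapped. Ms4a2, a chain of the IgE receptor, was at -0.86 (95% interval -1.91 to 0.19), Mrgprb1 at -0.62, the histamine enzyme Hdc at -0.43 and Fcer1a, the other defining chain, at -0.39, on means under 50 in both groups. Kit, the growth factor receptor that other cells also make, was at 0.034 (95% interval -0.33 to 0.4). Across all alternatives the log2 fold change of Cpa3 lay between -1.24 and -0.95 and that of Mcpt4 between -0.97 and -0.76. Members at low levels moved more, with Ms4a2 at -1.12 to -0.44, Mrgprb2 at -2.08 to -0.78 and Mrgprb1 at -0.89 to -0.38. Hdc lay between -0.57 and -0.23 and Fcer1a between -0.66 and -0.11. At 1 and 3 days, against the same untreated libraries, Cpa3 was at -0.62 and -0.37, neither called. Fcer1a was at 0.75 and 0.91 and Mrgprb2 at 0.076 and 0.19, also not called. Under the lymph node label at 14 days Cpa3 was at -0.29 (adjusted p = 0.753 by limma), on 66.2 to 70.4 and 36.9 to 76.9 normalised read counts. Mcpt4 was there at -0.98 (adjusted p = 0.422 by limma) and Ms4a2 at -0.92 (adjusted p = 0.109 by limma).

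Of the 3 genes called with the adipocyte score as a covariate, 2 were higher. Lctl, a member of the lactase and klotho family, was read at 39.8, 169, 86, 147 and 179 in untreated and 177, 433, 274, 465 and 483 in treated libraries. The groups overlapped, with 4 of 5 treated libraries above all untreated ones, at a log2 fold change of 1.65 without and 1.2 with the covariate (adjusted p = 0.00207 by limma). Orm1, an acute phase protein of plasma that fat cells also make, was read at 255, 1491, 584, 1230.2 and 1184 and 835, 2449.8, 1197, 2855 and 2822. Its log2 fold change was 1.19 without and 0.69 with the covariate (adjusted p = 0.00837 by limma). Cideb, which helps to load lipid onto particles, was at 3.46 to 14.8 and 15.3 to 33.5, without overlap (1.6, 95% interval 0.62 to 2.57).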
